A study of Rattus norvegicus with 6 samples.

Results

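The inhibitors of extracellular proteases encoded by A2m, Cst3, Timp1, Timp2, Timp3 and Serpina3n were measured in rat hippocampus. A probe set was taken when the platform annotation named exactly 1 gene for it and that gene was one of these 6, of 4736 genes so named. This gave 13 probe sets of the 8740 on the array other than controls: 6 for A2m, 2 each for Cst3 and Timp1, and 1 each for Timp2, Timp3 and Serpina3n. The genes were chosen by function with the intensities of both rat lines on these same arrays already known. Their differences between lines are therefore a description and support nothing. One rat line, SHA, is named Syracuse High Avoidance, and the other, SLA, Syracuse Low Avoidance. The names refer to how well the rats learn to avoid a signalled shock by crossing between compartments. Each line was sampled as 3 pools, numbered 1 to 3, each of whole hippocampus from 3 rats. All rats were killed 2 weeks after avoidance testing. The labels give no age, sex, treatment or untested group, and pooling hides the spread between single rats. No label says that pools came from separate litters, so an SD or SE measures the spread between these pools.

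A2m encodes alpha-2-macroglobulin, a large secreted protein that traps proteases of every class after they cut its bait region. The complexes are cleared through the receptor Lrp1. In the rat A2m is a classical acute phase gene, driven by the IL-6 family through Stat3, and in brain astrocytes make it. Cst3, cystatin C, blocks cysteine cathepsins and is abundant in cerebrospinal fluid. The TIMPs bind matrix metalloproteinases: Timp1 is the inducible soluble form, Timp2 is broadly expressed, and Timp3 stays bound to the matrix. Serpina3n is a serpin that reactive astrocytes raise.

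The arrays already shared a common scale, with trimmed mean intensities of 250.3 to 250.4, so the intensity of a probe set is compared between pools. Levels of different probe sets are not read as relative amounts of RNA. They served to filter probe sets, to choose the brightest of a gene or list, and in summed marker intensities. Of the 13 probe sets, 10 passed a filter on low mean intensity that left 6555 probe sets for testing. Control probe sets for bacterial and phage transcripts followed the pool number: their geometric mean was 5458 in SHA and 12282 in SLA for number 1, 1121 and 640 for number 2, and 2279 and 1564 for number 3. The probe sets for the opposite strand of Gapdh and beta-actin ranked the numbers alike, from 21.3 in SLA pool 2 to 1432 in SLA pool 1. Deviations from the line means correlated at 0.44, 0.68 and 0.13 between pools of the same number, across probe sets, so values within each number are given beside the pooled ones.

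**Figure D1:**
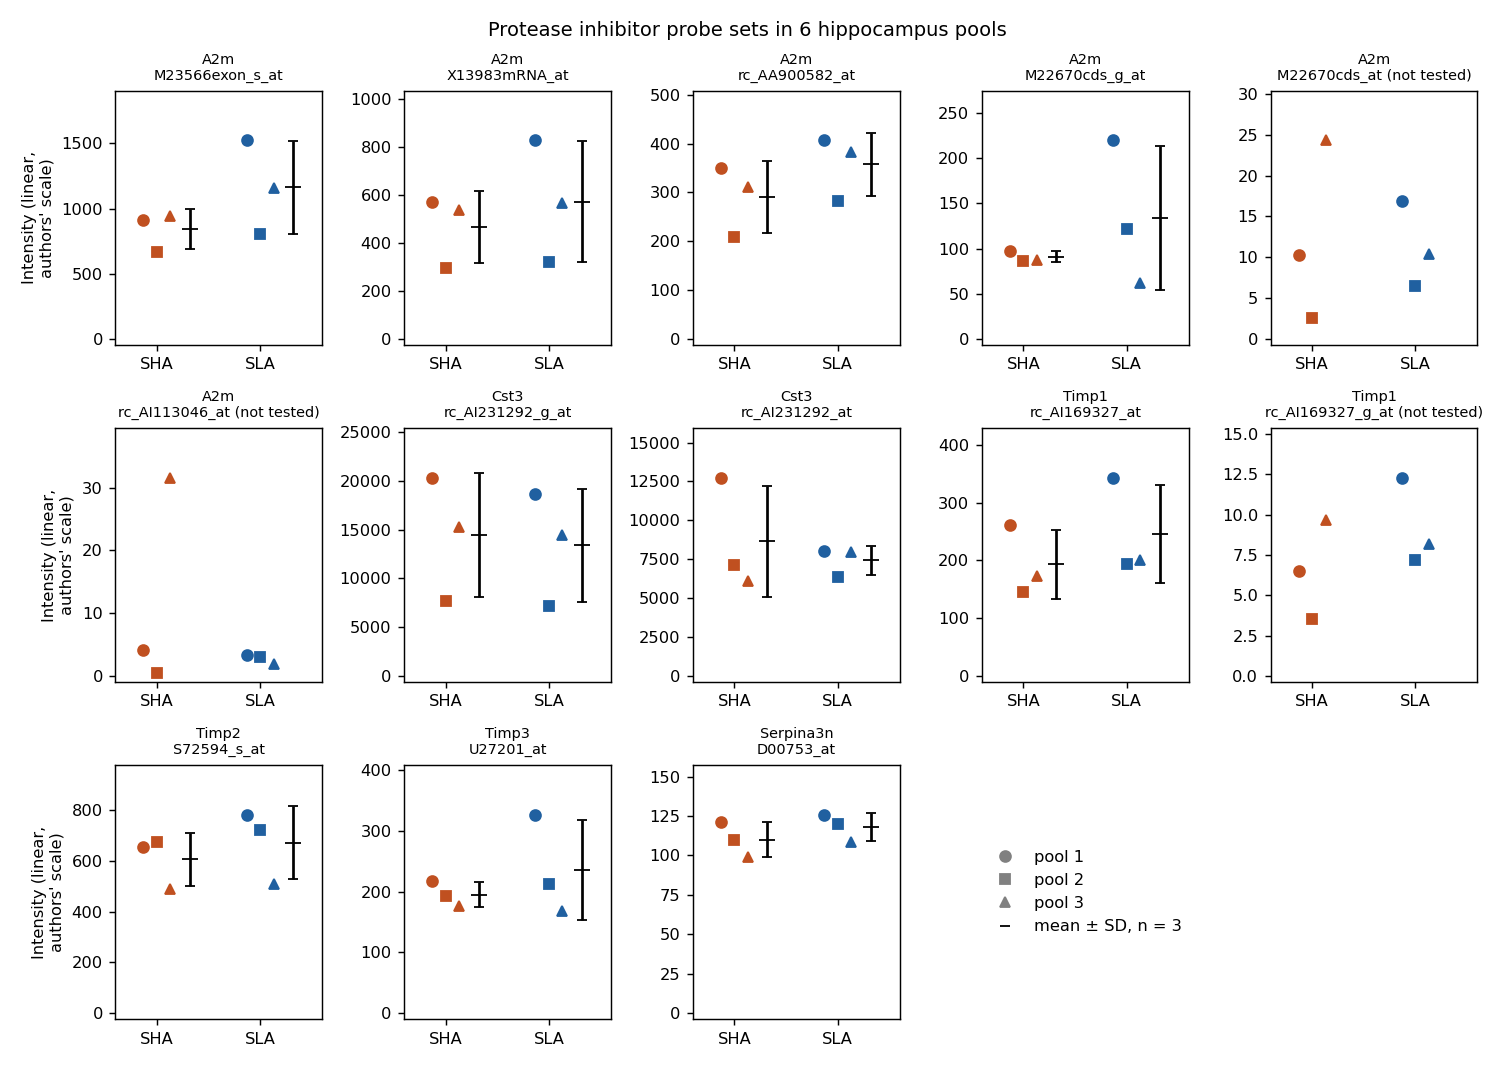
Linear intensity on the authors' scale (y axis) of the 13 probe sets in the 3 SHA (orange) and 3 SLA (blue) pools; symbols give the pool number and black bars the mean ± SD (n = 3) of the 10 probe sets tested. Points of the lines overlap in each of the 10, and for A2m on M23566exon_s_at the SHA pools span 668 to 942 and the SLA pools 805 to 1523.

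A2m read lower in SHA on average on the 4 probe sets tested, but on none of them were the lines separate. On M23566exon_s_at the intensities were 915.5, 668 and 941.7 in SHA pools 1, 2 and 3 and 1523, 805.1 and 1159.5 in the SLA pools. The means were 842 ± 151 and 1163 ± 359 (SD, n = 3), a log2 difference of -0.43 ± 0.29 (SHA minus SLA ± SE). Both lines had their lowest value in pool 2, and SLA pool 2 lay below SHA pools 1 and 3. On X13983mRNA_at the values were 567.4, 292.6 and 536.7 in SHA and 825.7, 320.6 and 567.3 in SLA. These averaged 466 ± 151 and 571 ± 253, a difference of -0.25 ± 0.39, with pool 2 again the lowest in both lines. Dropping SHA pool 2 turned this difference to 0.05, and dropping SLA pool 1 turned it to 0.07. On rc_AA900582_at the values were 351, 209 and 311.1 against 406.6, 283.3 and 382.6, with means of 290.4 ± 73.2 and 358 ± 65.4. The difference was -0.32 ± 0.30, and the order of the pools was the same in both lines, 1 above 3 above 2. Less RNA per cell and fewer cells that make a transcript cannot be told apart in whole tissue, here or in the results that follow.

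The other tested probe set of A2m had another order of pools. M22670cds_g_at read 97.7, 86.7 and 87.5 in SHA and 219.8, 121.2 and 61.8 in SLA. The SHA pools lay close together and the SLA pools spread 3.56-fold, from below to above them. The means were 90.6 ± 6.13 and 134 ± 79.8 and the difference was -0.38 ± 0.50. Without SLA pool 1 it was 0.06, without both pools numbered 1 it was 0.01, and with array weights it was 0.30. Its companion M22670cds_at, designed to the same sequence, read 10.3, 2.5 and 24.3 in SHA and 16.9, 6.5 and 10.4 in SLA, with 2 pools under the floor of 8.9. The sixth probe set, rc_AI113046_at, read 4.1, 0.4 and 31.6 against 3.4, 3 and 1.9, so it lay above the floor in SHA pool 3 alone. Neither of these dim probe sets entered the tests. The sign of the A2m difference held with any single pool left out on M23566exon_s_at and rc_AA900582_at. Leaving out 1 pool also leaves its same-numbered partner unmatched, and without both pools numbered 1 the difference on X13983mRNA_at was -0.11.

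Cst3 differed little between the line means, beside a wide spread over pools. Probe set rc_AI231292_g_at read 20353, 7677 and 15274 in SHA and 18622, 7178.5 and 14413 in SLA. The means were 14435 ± 6379 and 13405 ± 5788, a difference of 0.10 ± 0.48. Pools of the same number were alike and pools of a line were not, with a 2.65-fold range within SHA and a 2.59-fold range within SLA. Probe set rc_AI231292_at, designed to the same sequence, read 12749, 7116 and 6100.5 in SHA and 8026, 6375 and 7933 in SLA. Its means were 8655 ± 3582 and 7444 ± 928, a difference of 0.15 ± 0.34 that rested on SHA pool 1. Without that pool the difference was -0.17, and without both pools numbered 1 it was -0.11. For rc_AI231292_g_at, dropping SHA pool 1 gave -0.20 and dropping SLA pool 2 gave -0.29, while dropping SHA pool 2 gave 0.50 and dropping SLA pool 1 gave 0.39. For rc_AI231292_at, dropping SHA pool 3 gave 0.36. Each of these omissions of 1 pool left a same-numbered partner unmatched, and without both pools numbered 1 rc_AI231292_g_at differed by 0.09. With quantile normalization rc_AI231292_g_at differed by -0.13, and with median centring by 0.16. The direction of Cst3 on this probe set thus changed with quantile normalization and with the omission of some single pools. On rc_AI231292_at it depended on the pools kept.

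The 3 metalloproteinase inhibitors each had the lower mean in SHA, within the spread of the pools. For Timp1, probe set rc_AI169327_at read 260.5, 145.4 and 172.5 in SHA and 343.1, 193.6 and 200.5 in SLA, with means of 193 ± 60.2 and 246 ± 84.4. The difference was -0.34 ± 0.36, and both lines ran from pool 1 down to pool 2. Dropping SLA pool 1 left -0.08 for Timp1, dropping SHA pool 2 left -0.16, and dropping SHA pool 1 gave -0.58. Its companion rc_AI169327_g_at was dim, at 6.5, 3.5 and 9.7 against 12.3, 7.2 and 8.2, and was not tested. Timp2, on S72594_s_at, read 654.6, 675.4 and 487.2 in SHA and 782.2, 723.7 and 510.5 in SLA, a difference of -0.14 ± 0.26. With array weights the Timp2 difference was 0.10, and without SHA pool 3 it was 0.01. Here pool 3, not pool 2, was lowest in both lines. Timp3, on U27201_at, read 217, 192.3 and 176.7 against 327, 212.5 and 168, a difference of -0.22 ± 0.33. SLA pool 1 alone stood above the SHA pools' range by a wide margin, and without it the Timp3 difference was 0.04. With array weights it was 0.10.

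Serpina3n, on D00753_at, varied least of the 10 probe sets tested, with a 1.27-fold range over the 6 pools. Its intensities were 121.4, 109.6 and 99 in SHA and 125.8, 119.8 and 108.2 in SLA, with means of 110.0 ± 11.2 and 118 ± 8.95 and a difference of -0.10 ± 0.35. The highest pool of a line was 1.23 times the lowest in SHA and 1.16 times in SLA. The SE exceeds this spread because the fit draws each variance toward that of probe sets of like intensity. Among the tested inhibitors its pattern over pools lay nearest to that of Timp2.

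Promoter sequence from RefSeq (build GRCr8) was matched for 5 of the 6 genes, the exception being A2m. The 250 bases before each start were searched on both strands for TTCNNNGAA, the letters of a STAT site, and for TGAGTNA, letters of an AP-1 site. Of 33469 promoters, 7.67% hold the first and 11.8% the second. Serpina3n held the first once and Timp1 the second once, while the windows of Cst3, Timp2 and Timp3 held neither. The stretches of Serpina3n and Timp1 are shown because they alone held a match, with the matches in capitals, 5′ to 3′. A match describes letters only. The Serpina3n stretch lies at chr6:129088142-129088391 on the plus strand, with the match starting at -123 from the start. The Timp1 stretch lies at chrX:3771212-3771241 on the minus strand, with the match starting at -108.
Serpina3n: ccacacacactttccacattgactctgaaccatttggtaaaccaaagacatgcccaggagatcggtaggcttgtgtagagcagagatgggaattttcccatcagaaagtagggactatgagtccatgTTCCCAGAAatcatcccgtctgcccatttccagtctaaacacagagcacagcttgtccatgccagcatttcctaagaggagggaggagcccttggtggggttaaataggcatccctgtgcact
Timp1: cagtgggtggaTGAGTAAtgcgtccaggaa

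The comparison between lines asks which transcripts differ between rats that learn avoidance well and rats that learn it poorly. In limma's test over all probe sets 0 of 6555 passed an adjusted p of 0.05, or 0%, and 98 had an unadjusted p under 0.05. None of the 10 inhibitor probe sets was in either count of this fit without the pool number. Their SE lay between 0.26 and 0.50, against a median of 0.44 over all probe sets tested. SHA pools lay wholly below SLA pools for 3.65% of all probe sets and wholly above for 2.01%, and for 0 of the 10. Of the 10, 8 had the lower mean in SHA, where 51.9% of all probe sets did. Their median difference was -0.24, beside -0.01 for all probe sets.

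Differences were also taken within each pool number. For A2m the log2 differences in numbers 1, 2 and 3 were -0.73, -0.27 and -0.30 on M23566exon_s_at, and -0.54, -0.13 and -0.08 on X13983mRNA_at. They were -0.21, -0.44 and -0.30 on rc_AA900582_at. M22670cds_g_at gave -1.17, -0.48 and 0.50 and so reversed in the pools numbered 3. Timp1 gave -0.40, -0.41 and -0.22, Timp2 -0.26, -0.10 and -0.07, and Serpina3n -0.05, -0.13 and -0.13. Timp3 gave -0.59, -0.14 and 0.07. Cst3 gave 0.13, 0.10 and 0.08 on rc_AI231292_g_at, and 0.67, 0.16 and -0.38 on rc_AI231292_at. In all, 6 of the 10 were lower in SHA in each of the 3 pairs and 1 was higher in each. Over all probe sets the shares were 15.2% and 12.7%. Since these differences belong to the contrast that was known when the genes were chosen, nothing is read from the comparison of shares. With the pool number as a block, the SE of M23566exon_s_at fell to 0.15, and its unadjusted p in limma was 0.022, while its adjusted p was 0.83. It was the 1 probe set of the 10 with an unadjusted p under 0.05 in that blocked fit, and 2 of the 10 had one with array weights added. That adjusted p was the lowest of the 10, shared with rc_AA900582_at and Timp1.

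**Figure D2:**
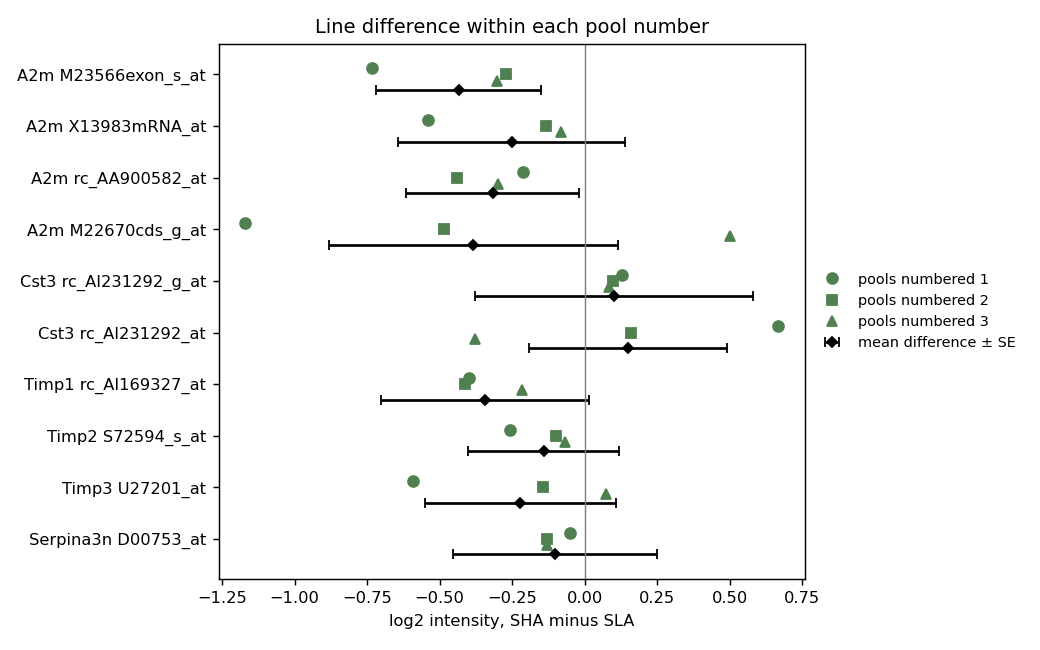
Log2 intensity in SHA minus SLA (x axis) for the 10 tested probe sets; green symbols are the differences between pools of the same number and black diamonds the mean difference ± SE over 3 pools per line. The 3 green symbols lie left of 0 for 6 probe sets, among them 3 of A2m, and right of 0 for Cst3 on rc_AI231292_g_at.

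The pool number was a contrast that the choice of genes had not used, and it was tested over all probe sets with line in the model. In limma's moderated F test 498 of 6555 probe sets, or 7.6%, had an adjusted p under 0.05, and 2 of the 10 did: Cst3 on rc_AI231292_g_at (F = 36.8, adjusted p = 0.0075) and A2m on X13983mRNA_at (F = 16.3, adjusted p = 0.034). The pools numbered 2 read lower than the mean of the others by a log2 of -1.19 and -1.0 for these 2. The median over all probe sets was -0.04. The adjusted p of the other 8 ran from 0.10 for A2m on M23566exon_s_at to 0.84 for Serpina3n. Both calls were lost with quantile normalization, where the adjusted p was 0.28 for Cst3 and 0.057 for A2m, and with median centring, at 0.093 and 0.094. They were also lost with no intensity trend, at 0.14 and 0.18, and with no filter, at 0.16 and 0.17. Both held with a floor at the 25th percentile, a floor of 1, log2(value + 16) and the dimmer 50% left out. In those settings the adjusted p of the F test was 0.0046 to 0.0085 for Cst3 and 0.030 to 0.034 for A2m. After the values were seen, probe sets were counted whose pools numbered 2 were lowest in both lines. These were 5 of the 10, 3 of A2m with Cst3 on rc_AI231292_g_at and Timp1, beside 24.9% of all probe sets. The array controls were also lowest in the pools numbered 2. Their part in the result was not tested.

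**Figure D3:**
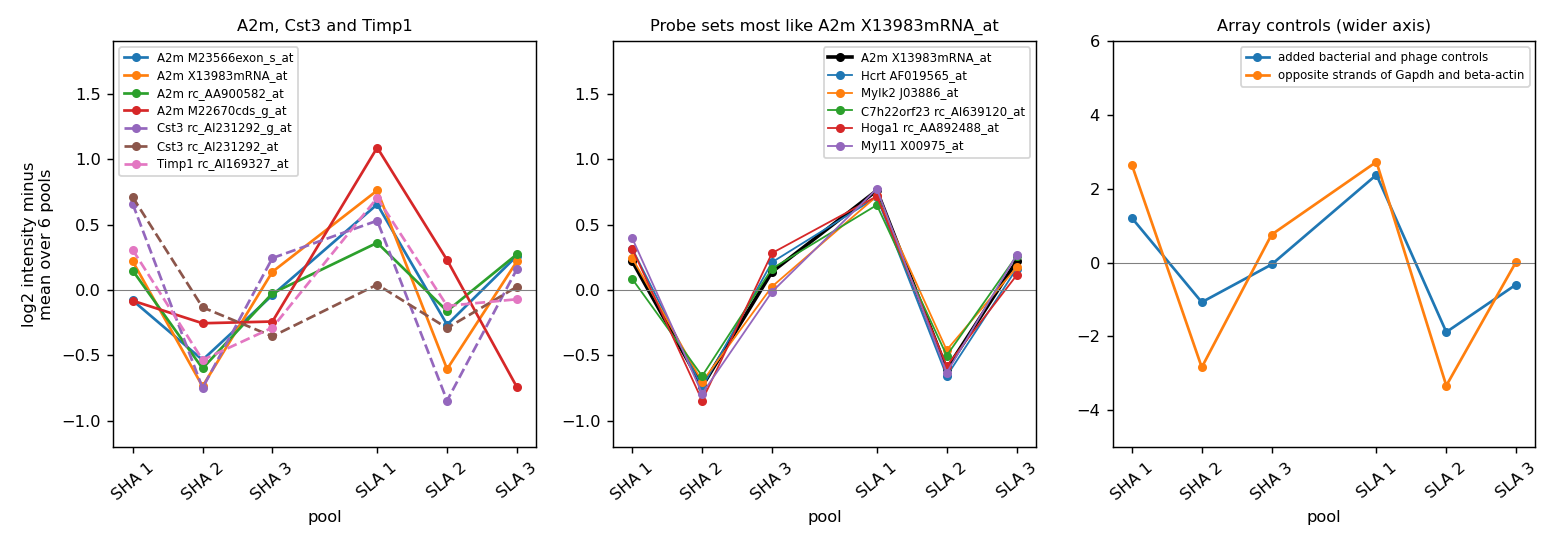
Log2 intensity minus its mean over the 6 pools (y axis) against pool (x axis) for the tested probe sets of A2m, Cst3 and Timp1 (left), A2m X13983mRNA_at with the 5 genes most like it (middle), and 2 sets of array controls (right, with a wider y axis). Pools numbered 2 are low in both lines in the middle and right panels and for 5 of the 7 lines on the left, while M22670cds_g_at falls from SLA pool 1 to SLA pool 3.

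Probe sets most like A2m over the 6 pools were found by the root mean square difference of log2 values, each centred on its own mean. For M23566exon_s_at the 5 nearest genes were Ret (0.089), Mamdc4 (0.089), Chrng (0.094), Sycn (0.094) and Plec (0.10). Chrng encodes a subunit of the muscle acetylcholine receptor and Ret a receptor tyrosine kinase. For X13983mRNA_at they were Hcrt (0.062), Mylk2 (0.081), C7h22orf23 (0.091), Hoga1 (0.096) and Myl11 (0.10). Mylk2 and Myl11 are known from skeletal muscle, and Hcrt, the orexin precursor, from the hypothalamus. For Hcrt on AF019565_at the intensities were 325, 156 and 303 in SHA and 427, 166 and 292.5 in SLA, with the 2 lowest in the pools numbered 2. The nearest other A2m probe set to M23566exon_s_at was rc_AA900582_at, at 0.16, and 65 of the 6554 other probe sets lay closer. From X13983mRNA_at to M23566exon_s_at the difference was 0.22, with 151 closer. M22670cds_g_at lay at 0.51 and 0.60 from these 2, with 40.4% and 41.6% of the other probe sets closer. For both of these A2m probe sets the 5 nearest genes lay closer than any other tested A2m probe set did.

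The wider families were described with 1 probe set per gene, the brightest, and none of their genes passed limma's test between lines. Over 130 distinct genes of 11 lists, 80 were lower and 50 higher in SHA with a median of -0.14, against 2066 and 1746 of all 3812 genes and a median of -0.03. The lines did not overlap for 6 of the 130, lower in SHA in each case, and for 5.90% of all genes, of which 155 were lower and 70 higher. Cystatins and kininogens had 4 of 5 lower (median -0.35). Cstb, the intracellular cystatin B, read 690.9, 651.8 and 627.4 in SHA and 892.6, 840.7 and 787 in SLA on rc_AI008888_g_at, a difference of -0.35 ± 0.21. The SHA values all lay below the SLA values, while the other Cstb probe set differed by 0.30 ± 0.42. Serpins had 7 of 11 lower (median -0.10). Serping1, the C1 inhibitor, read 37.7, 28.3 and 37 against 242.9, 104.7 and 102.4, a difference of -2.01 ± 0.51, and Agt, angiotensinogen, a serpin that inhibits no protease, differed by -0.10 ± 0.28. In the alpha-macroglobulin family 2 genes were tested, A2m and C3, the complement component, which differed by -1.51 ± 0.58. Kunitz, Kazal and WAP inhibitors were split 6 lower to 7 higher (median 0.02), with Sparc at 0.31 ± 0.56 and Sparcl1 at -0.11 ± 0.34. The other tested probe sets of Sparc differed by 0.31, 0.02 and -0.11.

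Lists of proteases were described as well, and not every gene in them is a target of these inhibitors. Metalloproteinases had 10 of 17 lower (median -0.04). Ece1, which processes endothelin, differed by 0.27 ± 0.27, and its other tested probe set by 0.01 ± 0.40. Mep1a, a meprin subunit, differed by -0.47 ± 0.27 with no overlap between lines on S43408_at. The other Mep1a probe set, S43408_g_at, was dim and not tested, and ran the other way, at 17, 16.6 and 15.5 in SHA and 15, 4 and 6.1 in SLA. Cysteine and aspartic cathepsins, of which Cst3 inhibits only cysteine ones, had 5 of 7 lower (median -0.11). Ctss, a cysteine cathepsin of microglia that Cst3 inhibits, read 1932, 2394 and 1408 in SHA and 2056, 3106 and 3237.5 in SLA, a difference of -0.56 ± 0.29 with SLA pool 1 inside the SHA range. Ctsb differed by -0.11 ± 0.34. Extracellular serine proteases and their receptors had 15 of 25 lower (median -0.12), with the mast cell proteases Mcpt1l1 at 0.03 ± 0.45 and Tpsb2 at -0.12 ± 0.33.

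Genes upstream of A2m, those that clear or bind it, and plasma proteins were described next. Receptors and ligands of A2m had 7 of 10 lower (median -0.23), and the median was 0.02 when the probe sets of a gene were averaged. The receptor Lrp1 itself was not among the 10 genes tested. Of the 10, Apoe, a ligand of the same receptor, differed by -0.09 ± 0.59 and Hspa5, a chaperone, by -0.22 ± 0.37. The IL-6, Stat3, C/EBP and glucocorticoid genes were split 11 to 11 (median -0.05), and Il6 itself was not among those tested. Among the tested genes Fos differed by -0.33 ± 0.27 and Cntfr, a receptor chain for ciliary neurotrophic factor, by 0.00 ± 0.42. Plasma proteins of liver and blood, not all of them raised in the acute phase, had 10 of 15 lower (median -0.30, and -0.09 with probe sets averaged). Apoa2 read 15.2, 8.8 and 18 against 124.3, 43.3 and 87.1, a difference of -2.53 ± 0.68 with SHA pool 2 under the floor. Fn1, fibronectin, differed by -0.40 ± 0.29 on X05834_at with no overlap, and its other 3 tested probe sets by 0.68, 0.56 and 0.51.

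**Figure D4:**
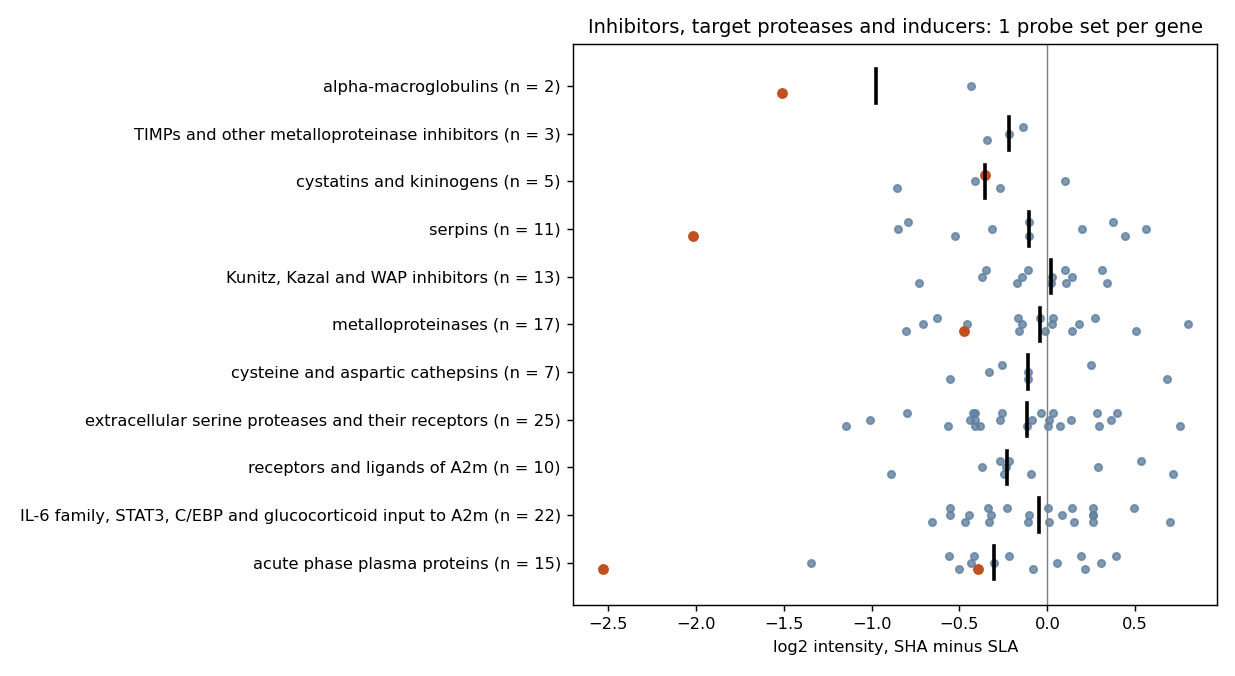
Log2 intensity in SHA minus SLA (x axis) of each tested gene in the 11 lists of inhibitors, proteases, receptors, inducers and plasma proteins; black bars are list medians and orange points the genes whose SHA and SLA pools do not overlap. All 6 orange points lie left of 0, the farthest being Apoa2 at -2.53 and Serping1 at -2.01.

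Markers of the cell types in the tissue were set beside these values, as counts of genes and as intensities summed over the list, in which the brightest genes weigh most. Astrocyte markers, from the cells that make A2m and Serpina3n, had 15 genes with a probe set annotated to exactly 1 gene. All 15 were tested, 8 lower and 7 higher. Their summed intensities were 37424 to 45188 in SHA and 34241 to 45338 in SLA. Gfap was not among the 15, which does not show that the array lacks it. The lines did not overlap for 1 of the 15, Vim, and for 5.90% of all genes. Vim read 85.8, 127.1 and 93.3 in SHA and 189.8, 284.4 and 185.9 in SLA. Microglia and immune markers had 12 of 13 lower (median -0.41), and their sums did not overlap, at 3422 to 5240 in SHA and 5492 to 6563 in SLA. Gene by gene, the lines did not overlap for 3 of the 13, and for 5.90% of all genes. Meningeal and fibroblast markers had 12 of 14 lower, with sums of 2451 to 2876 and 2723 to 3494. Choroid plexus markers had 7 of 8 lower, with 1280 to 1656 against 1482 to 1836. Endothelial and pericyte markers had 9 of 12 lower, with sums of 1658 to 1953 against 1873 to 2015. Neuron markers had 11 of 14 higher, with sums of 16450 to 23994 and 14911 to 22228, and oligodendrocyte markers 5 of 8 lower, with 15087 to 21843 and 14890 to 26667. Blood cell markers had 4 of 5 lower, with 1486 to 3386 and 1572 to 2961. The part of any of these cells in the inhibitor values was not tested.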

How the data were processed

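For each of 6 one-colour oligonucleotide arrays the authors deposited a table of linear intensity by probe set. The values hold no number below 0, and their 2%-trimmed means agree, so they had been scaled before deposit. The software behind them is not given in the sources used here, and detection calls were not analysed here. The 59 control probe sets were left out of the tests. Values under a floor of 8.9 (the 10th percentile) were set to it, log2 was taken, and the dimmest 25% of probe sets by mean were dropped, leaving 6555. Symbols were updated by gene number (6985 of 7006 probe sets with 1 symbol). Lines, and pool numbers with line in the model, were tested with limma 3.58.1 in R 4.3.3 (intensity trend, two-sided, Benjamini-Hochberg over all probe sets, threshold 0.05). The code was checked on simulated data with planted differences far larger than those of the inhibitors. That check therefore does not show whether differences of their size would be found. The number of arrays limits the precision. Same-numbered pools correlated above 0.1 in each of the 3 numbers, so the numbers were taken as pairs, from the data alone. The third number is not set apart, since r was 0.13 between its pools but 0.16 between SHA pool 3 and SLA pool 1. The members, lists, tests and alternatives were chosen with earlier results of these data known. Named genes are those of the member list, the 5 nearest to each of the 2 brightest A2m probe sets, and per list the genes without overlap (at most 4), filled to 2 by the brightest.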

Additional observations from a re-analysis of the deposited data

How the results depend on the processing

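Each inhibitor difference between lines was recomputed under 18 alternatives, which gave 180 values. Of these 14 changed sign and 1 moved by over 1 SD of its pools, that of A2m on M22670cds_g_at with array weights. The differences of A2m on M23566exon_s_at and rc_AA900582_at, of Timp1 and of Serpina3n kept a negative sign in the 18, with ranges of -0.68 to -0.22, -0.48 to -0.10, -0.58 to -0.08 and -0.18 to -0.03. A2m on X13983mRNA_at turned positive when SHA pool 2 (0.05) or SLA pool 1 (0.07) was dropped. No inhibitor probe set passed in limma under any of them. Over all probe sets the count of 0 became 12 with the replicate block and array weights together. The count of 98 at an unadjusted p under 0.05 rose to 345 with the replicate block, 354 with array weights and 871 when these were combined, and to 203 when no filter was used. It was 63 after dropping the dimmer 50%. Leaving out 1 pool gave 58 (SLA pool 3), 61 (SHA pool 1), 149 (SHA pool 2) and 154 (SLA pool 2) at the extremes. Probe sets without overlap between lines numbered 371, 716 to 1032 with 1 pool left out, and 1582 without both pools numbered 1, since fewer pools overlap less often. Their split of 132 higher and 239 lower became 188 and 206 with quantile normalization and 149 and 173 with median centring. The 498 probe sets that differed by pool number became 172 with quantile normalization, 155 with median centring, 4 with no filter and 4 with no intensity trend. The cause was not tested. Of 33 list medians under alternatives, 5 changed sign.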
